A study of Homo sapiens with 9 samples.

Results

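The genes described here are those of the cellular response to low oxygen and of glycolysis, the pathway that splits glucose into pyruvate. They were taken from a list of 39 gene symbols, and 36 of them had a probe set of their own among the 18417 genes measured. CA9, SLC16A3 and PGAM1 had no probe set that names them alone and were not analysed here; the 5 probe sets that name PGAM1 also name PGAM4. For TPI1, the 1 member with several probe sets, the brighter one was used. The 36 genes comprised 6 HIF subunits and oxygen-sensing genes, 10 hypoxia target genes, 3 glucose transporters and 17 glycolytic enzymes and regulators.

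Total RNA of Hep3B cells, an established human hepatocellular carcinoma line, was hybridised to 9 Affymetrix gene arrays, 3 for each of 3 groups. Untreated cells served as one control, cells transfected with a nonsense siRNA as the other, and the third group received an siRNA specific for YAP, the transcriptional coactivator restrained by the Hippo pathway; the labels name no other agent, allele or oxygen condition. Per the labels, cells grew in full medium for 24 h, and transfected cells were kept for another 24 h before RNA was taken. The labels give no such further time for untreated cells. In comparisons with untreated cells, transfection and time in culture therefore cannot be told apart. Sample titles begin with HUH, whereas the cell line field and the descriptions say Hep3B, which was followed. The labels do not state that the 3 samples of a group were separate cultures, so each p-value measures the spread between these samples only. The values are log2 array signals, so a difference of 1 is a doubling, and precision is limited by having 3 arrays a group. In such bulk RNA a change in the amount of RNA per cell and a change in the number of cells that express a gene cannot be told apart.

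In the textbook account, cells sense oxygen through prolyl hydroxylases of the EGLN family, which mark the alpha subunits encoded by HIF1A and EPAS1 so that the VHL protein binds them and they are degraded. When oxygen is low the alpha subunits persist, pair with the constitutive ARNT subunit and bind the DNA core ACGTG or GCGTG near their target genes. The targets include glucose transporters and nearly every enzyme of glycolysis, as well as genes for blood vessel growth, mitochondrial turnover and collagen modification. Much of this control acts on the alpha proteins, which arrays do not measure. Liver tumour cells commonly replace liver isoforms of glycolytic enzymes with the forms used by muscle, brain or fetal tissue.

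The core letters ACGTG and GCGTG were searched on both strands in the 250 bases before each gene start of RefSeq (GRCh38.p14), where 31 of the 36 genes had an entry; VHL, NDRG1, VEGFA, BNIP3L and SLC2A3 had none. Some genes have several starts, which gave 55 windows. Of these windows 58.18% held at least 1 of the cores, against 43.21% of the 35116 windows of all genes. Counted by gene, 80.65% of the 31 held a core in at least 1 window, against 47.41% of all 27305 genes with an entry. A gene with more starts has more windows in which a core can occur. GGAATG, the core letters of the sites of TEAD proteins, the DNA-binding partners of YAP, occurred in 5.45% of the windows, against 11.89% of all. By gene it occurred in 9.68% of the 31, against 14.29% of all. A match is a description of letters and not of binding. The windows below are those of the 4 genes with an entry that passed a test below, followed by LDHA and PGK1, textbook HIF targets that passed none. They are written 5′ to 3′ on the gene's strand, with the cores of either strand in capitals; CACGTG holds a core on each strand.
HIF1A (chr14:61695263-61695512, + strand): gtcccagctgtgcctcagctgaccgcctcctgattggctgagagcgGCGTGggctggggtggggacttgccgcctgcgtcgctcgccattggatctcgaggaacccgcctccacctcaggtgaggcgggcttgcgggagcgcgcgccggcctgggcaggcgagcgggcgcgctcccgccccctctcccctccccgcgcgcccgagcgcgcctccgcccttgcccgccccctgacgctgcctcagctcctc
EPAS1 (chr2:46297157-46297406, + strand): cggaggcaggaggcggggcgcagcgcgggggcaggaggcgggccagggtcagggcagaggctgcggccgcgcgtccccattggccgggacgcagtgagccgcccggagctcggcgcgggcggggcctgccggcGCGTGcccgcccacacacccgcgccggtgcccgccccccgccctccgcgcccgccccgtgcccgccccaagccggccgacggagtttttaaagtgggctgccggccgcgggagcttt
PFKM (chr12:48105231-48105480, + strand): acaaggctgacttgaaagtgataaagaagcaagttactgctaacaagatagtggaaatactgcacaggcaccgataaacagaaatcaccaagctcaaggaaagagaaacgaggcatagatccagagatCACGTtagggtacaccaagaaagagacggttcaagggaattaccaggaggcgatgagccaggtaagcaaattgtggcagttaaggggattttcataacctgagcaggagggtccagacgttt
ALDOC (chr17:28576896-28577145, - strand): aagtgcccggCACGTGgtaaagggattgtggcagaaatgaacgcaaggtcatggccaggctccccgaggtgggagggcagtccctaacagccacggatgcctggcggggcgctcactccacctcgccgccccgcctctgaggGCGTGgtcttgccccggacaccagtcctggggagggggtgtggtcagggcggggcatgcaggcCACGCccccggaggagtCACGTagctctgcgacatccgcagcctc
LDHA (chr11:18394313-18394562, + strand): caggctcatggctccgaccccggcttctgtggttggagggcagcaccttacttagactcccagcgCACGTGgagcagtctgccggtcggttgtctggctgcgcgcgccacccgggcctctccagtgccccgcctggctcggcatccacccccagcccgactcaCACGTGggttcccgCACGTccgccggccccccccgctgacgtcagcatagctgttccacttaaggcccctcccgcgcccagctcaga
PGK1 (chrX:78103998-78104247, + strand): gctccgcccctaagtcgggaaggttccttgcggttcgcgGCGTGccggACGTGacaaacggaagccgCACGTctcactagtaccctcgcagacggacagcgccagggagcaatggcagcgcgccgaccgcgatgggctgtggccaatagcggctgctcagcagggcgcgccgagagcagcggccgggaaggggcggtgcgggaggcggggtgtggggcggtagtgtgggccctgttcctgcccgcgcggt

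ALDOC had 5 matches and LDHA 5 in these windows, PGK1 3, and HIF1A, EPAS1 and PFKM 1 each. The PFKM window is 1 of 7 for that gene, and the other 6 held no core. Of the 2 windows of HIF1A, 1 held a core. None of the windows of HIF1A, EPAS1, PFKM or ALDOC held GGAATG. LDHA and PGK1 thus carried more cores than HIF1A and EPAS1. They were chosen as textbook HIF targets, and each printed window is the one of its gene with most cores. Whether the number of cores goes with passing a test was therefore not tested.

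The arrays were close to one another, with medians over all genes within 0.048 and Pearson's r of 0.988 to 0.997 across genes, which are not independent replicates. YAP1 fell by 1.18 after YAP siRNA against nonsense siRNA (limma adjusted p = 4.34e-09). Of 11 measured hepatocyte and hepatoma markers, 11 lay above the median signal of 7.31 and AFP was the highest at 12.39, whereas 2 of 6 leukocyte and 2 of 7 endothelial and stromal markers did. Among these markers FGA fell by 0.24 (limma adjusted p = 0.0367) and COL1A2 rose by 0.43 (0.000538) against nonsense siRNA, and the part of either in the results below was not tested. Nonsense siRNA replicate 2 stood apart from the other arrays of its group, with the lowest limma array weight of all 9 (0.453). The other 2 arrays of the group had 2.66 and 0.967. This low weight did not stand alone, since YAP siRNA replicate 3 had 0.462 and untreated replicate 3 had 0.597, each the lowest of its group. Results that rest on nonsense siRNA replicate 2 are given with and without it.

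Comparing YAP siRNA with nonsense siRNA addressed which of these genes differ after YAP siRNA among transfected cells. The samples hold no further YAP siRNA group, so a response to lower YAP1 and other effects of that siRNA cannot be told apart. HIF1A and EPAS1, which each encode an oxygen-regulated HIF alpha subunit, and the hypoxia-inducible gene NDRG1 fell, while the glycolytic genes PFKM and ALDOC rose. The changes were moderate: HIF1A was left at 75.5% of the nonsense siRNA level, NDRG1 at 76.8% and EPAS1 at 84.5%, and PFKM reached 133% and ALDOC 118%. In all, 5 of 36 genes passed limma's test at a Benjamini-Hochberg adjusted p under 0.05 over all genes, which is 13.9%, where 4.53% of all genes passed. Lower were 3 of the 36 (2.61% of all genes were lower) and higher were 2 (1.92% of all genes). The median difference was 0.04 over the 36 genes and 0.01 over all genes. Of the 10 measured hypoxia target genes 1 passed, of the 3 glucose transporter genes 0 and of the 17 glycolytic genes 2. Most of the 36 genes lay above the median signal, where a larger share of genes passed. With only the 9209 genes at or above it tested, 891 passed, and 6 of the members did, the 5 and SLC2A1.

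HIF1A had signals of 10.99, 10.80 and 10.95 on the nonsense siRNA arrays, 10.81, 10.71 and 10.69 on the untreated arrays and 10.55, 10.56 and 10.41 on the YAP siRNA arrays. All 3 YAP siRNA arrays lay below all 6 control arrays, and the lowest nonsense siRNA array was replicate 2. Against nonsense siRNA HIF1A fell by 0.41 (SE 0.0641, limma adjusted p = 0.00132, 95% interval -0.54 to -0.27). Against untreated cells the difference was -0.23 (limma adjusted p = 0.0690, 95% interval -0.37 to -0.09), short of the threshold. Without nonsense siRNA replicate 2 the same -0.23 passed (limma adjusted p = 0.0322), and so did the -0.26 of quantile normalization (0.0119) and the -0.20 of array weights (0.0280). It did not pass with median centring, with dim genes left out, with the mean of probe sets or with all probe sets tested (limma adjusted p = 0.228). Nor did it with the alternative variance model, only the 6 arrays compared, the replicate number as a block or any other 1 array left out.

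EPAS1, which encodes the alpha subunit that predominates in endothelium and is also made in liver and kidney, had signals of 9.29, 9.32 and 9.28 after YAP siRNA. The nonsense siRNA arrays read 9.57, 9.53 and 9.51 and the untreated arrays 9.62, 9.64 and 9.53. The YAP siRNA arrays again lay below all 6 controls, with little spread among themselves. EPAS1 fell by 0.24 against nonsense siRNA (SE 0.0509, limma adjusted p = 0.0105) and fell by 0.30 against untreated cells (limma adjusted p = 0.00326). The first call was lost without nonsense siRNA replicate 1 (limma adjusted p = 0.0691), and the second was kept in all 9 fits that left out 1 array.

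The other oxygen-sensing genes did not pass in any of the 3 comparisons with all arrays weighted equally. ARNT, the partner shared by the HIF alpha subunits, read 8.57, 8.64 and 8.51 after YAP siRNA, above all 6 control arrays, which lay between 8.33 and 8.48. Its differences were 0.17 against each control (limma adjusted p = 0.149 against nonsense siRNA and 0.173 against untreated cells), opposite in sign to those of HIF1A and EPAS1. Against nonsense siRNA ARNT passed with array weights (0.19, limma adjusted p = 0.0121) and when the lowest-weight array of each group, nonsense siRNA 2, YAP siRNA 3 and untreated 3, was left out (0.24, 0.0202). Over all genes 2404 and 1287 passed in these 2 settings, where 834 did in the main fit. EGLN1, the main HIF prolyl hydroxylase, differed by -0.19 from nonsense siRNA (limma adjusted p = 0.141), and the other hydroxylase gene, EGLN3, which is itself a HIF target, by -0.05 (95% interval -0.18 to 0.07). VHL differed by -0.02 (95% interval -0.16 to 0.13). As a group, 2 of the 6 genes fell against nonsense siRNA and 0 rose, with a median of -0.12 beside 0.01 over all genes, of which 2.61% were lower. Against untreated cells 1 of the 6 fell, with a median of -0.07 beside -0.01 over all genes, of which 1.46% were lower.

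**Figure D1:**
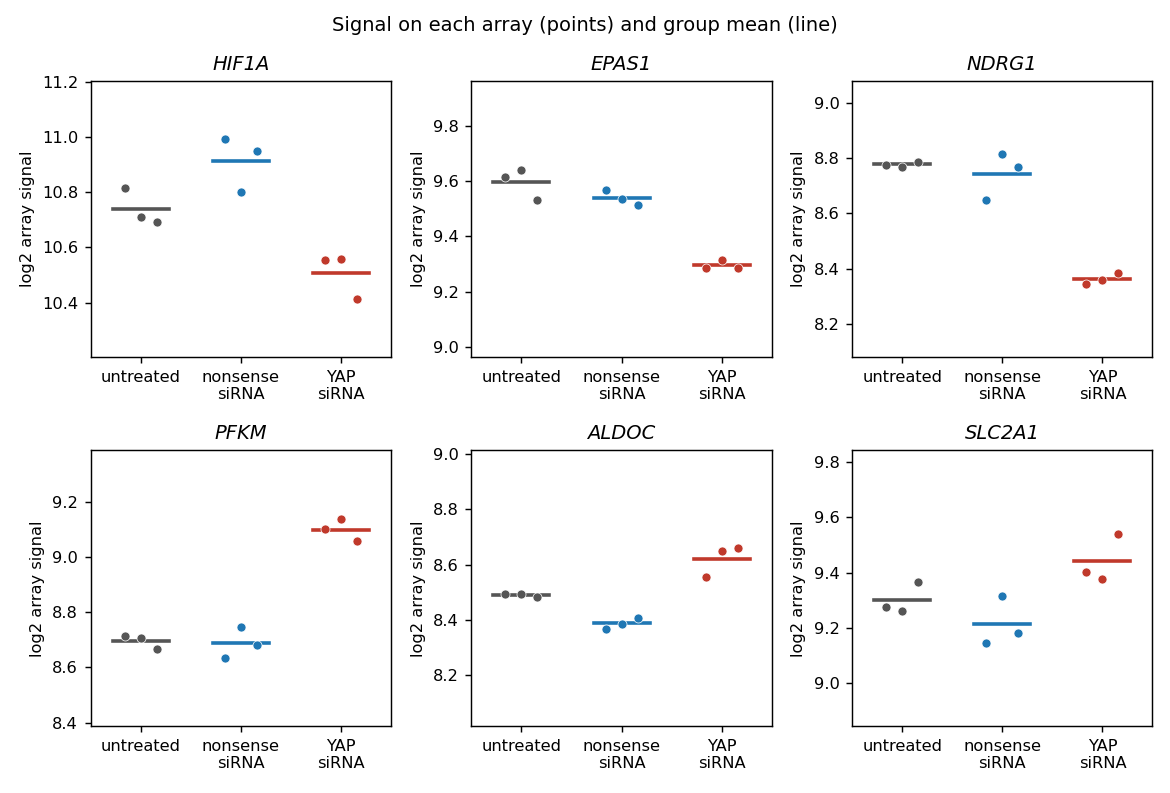
Log2 array signal (vertical axis, own scale per gene) of HIF1A, EPAS1, NDRG1, PFKM, ALDOC and SLC2A1 in untreated, nonsense siRNA and YAP siRNA samples; points are the 3 arrays of a group and lines are group means. The YAP siRNA arrays lie below all 6 control arrays for HIF1A, EPAS1 and NDRG1 and above them for PFKM, ALDOC and SLC2A1.

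Among the 10 measured hypoxia target genes, NDRG1 was the member that passed. It encodes a protein that restrains growth and metastasis in several tumour types and is a common marker of hypoxia. NDRG1 read 8.34, 8.36 and 8.38 after YAP siRNA, 8.65, 8.82 and 8.77 after nonsense siRNA, and 8.77, 8.77 and 8.79 in untreated cells. The 3 YAP siRNA arrays were the lowest of the 9, and the gap to the nearest control was wider than the range of the controls. NDRG1 fell by 0.38 against nonsense siRNA (SE 0.0541, limma adjusted p = 0.000556) and fell by 0.41 against untreated cells (limma adjusted p = 0.000441). Both calls were kept in all 9 fits that left out 1 array.

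The remaining 9 hypoxia targets had differences from -0.21 to 0.18 against nonsense siRNA and none passed. VEGFA, the vessel growth factor gene, differed by 0.06 from nonsense siRNA (95% interval -0.06 to 0.18) and by 0.05 from untreated cells (95% interval -0.07 to 0.16). For VEGFA the interval leaves out a fall as large as that of HIF1A or NDRG1. ADM, which encodes the vasodilator peptide adrenomedullin, differed by -0.04 (95% interval -0.19 to 0.12), and PDK1, whose kinase shuts off pyruvate dehydrogenase, by -0.14 (limma adjusted p = 0.229). The mitophagy receptor gene BNIP3L differed by 0.04, ANKRD37 by 0.05 and the histone demethylase gene KDM3A by -0.04. Of the collagen prolyl hydroxylase subunit genes, P4HA2 differed by 0.18 (limma adjusted p = 0.104) and P4HA1 by 0.01. The median of the 10 targets was -0.01 against nonsense siRNA and 0.06 against untreated cells, beside 0.01 and -0.01 over all genes.

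PFKM had the largest difference of the 17 glycolytic genes in both comparisons with YAP siRNA. It encodes the muscle form of phosphofructokinase, which catalyses the committed step of glycolysis. PFKM read 9.10, 9.14 and 9.06 after YAP siRNA, 8.64, 8.75 and 8.68 after nonsense siRNA, and 8.71, 8.70 and 8.66 in untreated cells. The range of the nonsense siRNA arrays took in that of the untreated arrays, and every YAP siRNA array was above both. PFKM rose by 0.41 against nonsense siRNA (SE 0.0518, limma adjusted p = 0.000207) and by 0.40 against untreated cells (limma adjusted p = 0.000404), and both calls were kept in all 9 fits that left out 1 array. The other phosphofructokinase genes did not pass: the liver form PFKL differed by 0.15 from nonsense siRNA and by -0.03 from untreated cells, and the platelet form PFKP, at a mean signal of 6.69, below the median over genes, by -0.01 and -0.02.

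ALDOC, the aldolase form of brain and fetal tissue, read 8.55, 8.65 and 8.66 after YAP siRNA. Its nonsense siRNA arrays read 8.37, 8.39 and 8.41, and its untreated arrays 8.49, 8.49 and 8.48. The 3 groups did not overlap, with untreated cells between the siRNA groups. ALDOC rose by 0.23 against nonsense siRNA (SE 0.0506, limma adjusted p = 0.0131), while the 0.13 against untreated cells did not pass (limma adjusted p = 0.206). The call was lost without nonsense siRNA replicate 1 (limma adjusted p = 0.0743), YAP siRNA replicate 2 (0.0626) or YAP siRNA replicate 3 (0.0509). ALDOA, the form found in most tissues, differed by 0.12 from nonsense siRNA (limma adjusted p = 0.428).

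The glucose transporter genes did not pass. SLC2A1, the widespread transporter induced by hypoxia, came closest at 0.23 against nonsense siRNA (limma adjusted p = 0.0515). It read 9.40, 9.38 and 9.54 after YAP siRNA, 9.15, 9.32 and 9.18 after nonsense siRNA and 9.27, 9.26 and 9.37 in untreated cells, so that the YAP siRNA arrays were just above the controls. Its adjusted p was 0.0144 without nonsense siRNA replicate 2 and 0.248 without nonsense siRNA replicate 1. It also passed with median centring (limma adjusted p = 0.0480), among genes at or above the median signal (0.0387), with the mean of probe sets (0.0498) and with array weights (0.00225). SLC2A1 did not pass with quantile normalization, with all probe sets tested (limma adjusted p = 0.175) or with the alternative variance model. Nor did it with only the 6 arrays compared, with the replicate number as a block or in any other fit that left out 1 array. Against untreated cells SLC2A1 differed by 0.14 (limma adjusted p = 0.279). SLC2A2, the liver transporter, and SLC2A3, the neuronal one, had mean signals of 6.76 and 6.93, under the median over genes, and differed from nonsense siRNA by 0.01 and 0.09.

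The other enzymes of glycolysis differed by 0.15 or less in either direction against nonsense siRNA. Of the 17 enzymes and regulators, 2 rose and 0 fell against nonsense siRNA, and 13 had a positive difference, which is 76.5% beside 55.7% of all genes. Against untreated cells 1 rose and 0 fell, where 3.09% of all genes passed, and 8 had a positive difference, which is 47.1% beside 43.6% of all genes. After nonsense siRNA 15 of the 17 read lower than in untreated cells on average, beside 10915 of all 18417 genes, and 0 of the 17 passed. A positive difference was thus held by 11.8% of the 17 and by 40.7% of all genes. The 13 positive differences against nonsense siRNA rest on these same nonsense siRNA arrays. The median of the 17 was 0.07 against nonsense siRNA and -0.01 against untreated cells. GAPDH differed by 0.09 from nonsense siRNA (95% interval -0.03 to 0.21), the enolase gene ENO1 by 0.03, LDHA, which makes lactate, by -0.07, and PGK1 by -0.03 (95% interval -0.14 to 0.08). HK2, the hexokinase that tumours switch on, differed by 0.15 (limma adjusted p = 0.378) and HK1 by 0.11. PFKFB3, whose enzyme makes the activator of phosphofructokinase, differed by -0.07 from nonsense siRNA and by -0.09 from untreated cells, and its YAP siRNA arrays (8.22, 8.22 and 8.26) lay just below all 6 controls. GAPDH, LDHA, ENO1, TPI1, PGK1 and PKM have processed pseudogenes in the genome, so their probe signal cannot be given to 1 gene with certainty.

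**Figure D2:**
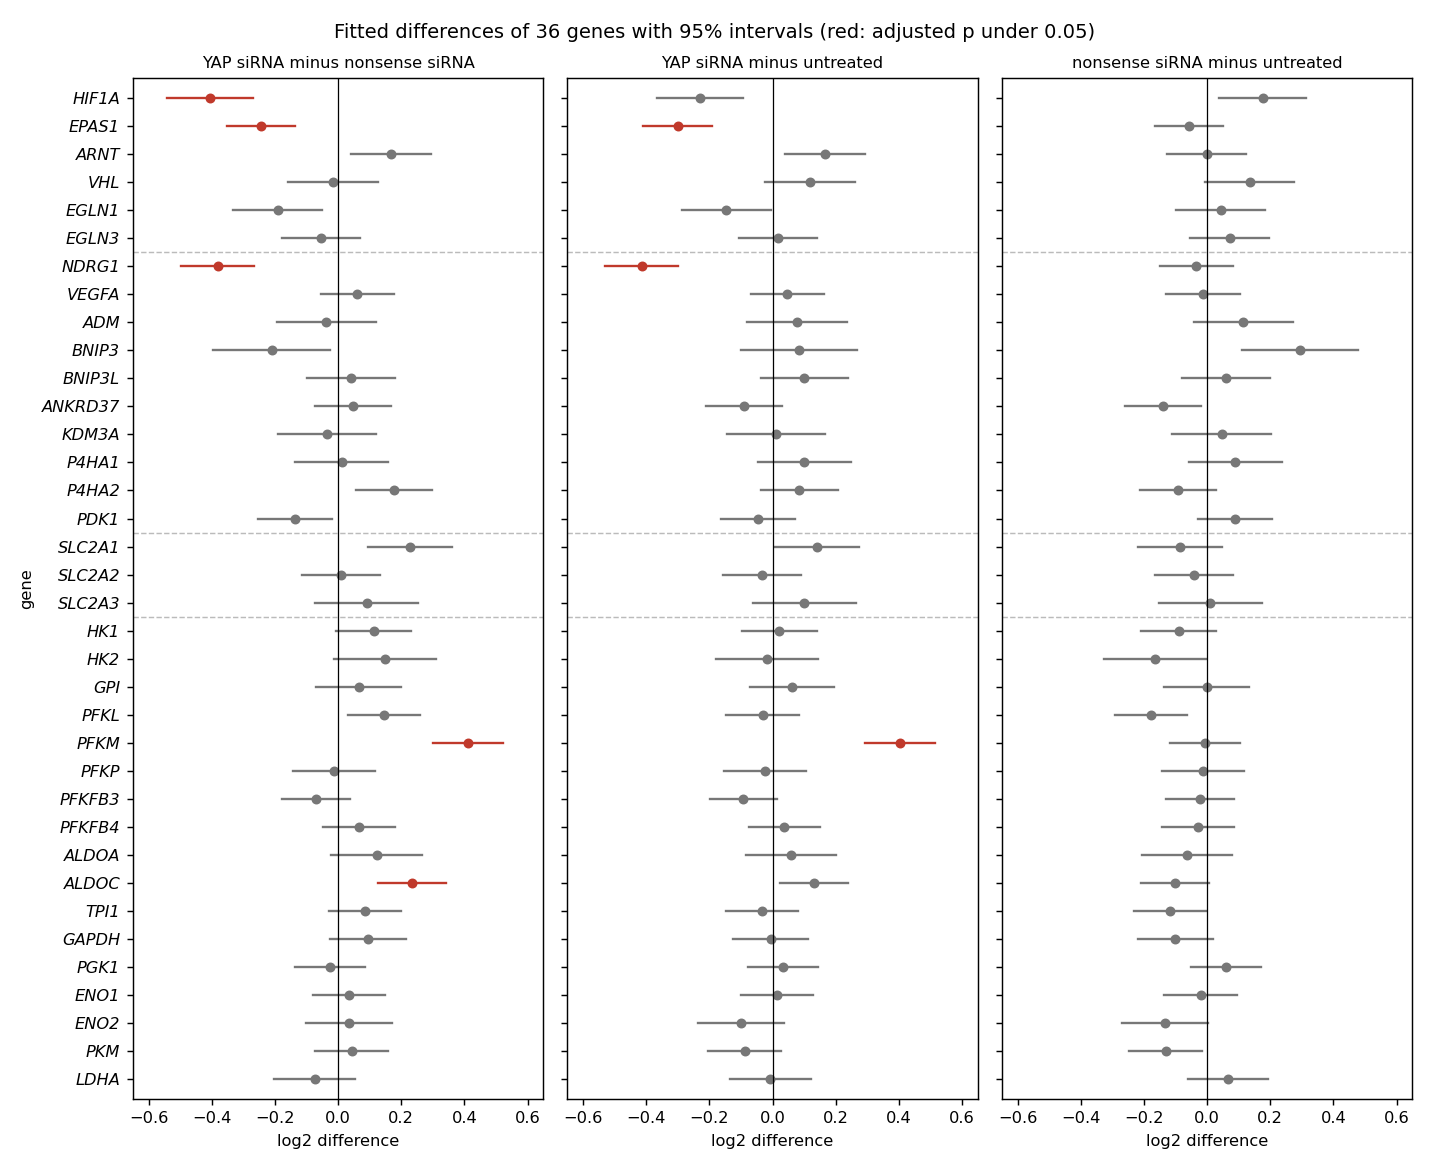
Fitted log2 difference (horizontal axis) of the 36 genes for YAP siRNA minus nonsense siRNA, YAP siRNA minus untreated and nonsense siRNA minus untreated; points are estimates, bars are 95% intervals, red marks an adjusted p under 0.05 and dashed lines separate the roles. There are 5 red genes in the left panel, 3 in the middle and 0 on the right.

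Set against untreated cells, YAP siRNA samples showed a subset of these changes: NDRG1 and EPAS1 fell and PFKM rose. These are 3 of 36 genes, or 8.33%, where 3.09% of all genes passed; 2 were lower (1.46% of all genes) and 1 was higher (1.63%). With only the 9209 genes at or above the median signal tested, 578 passed, and the same 3 members did. Both comparisons use the same YAP siRNA arrays, so they are not independent. In 8 of the 36 genes the 3 YAP siRNA arrays were all above or all below the 6 controls, 4 above (ARNT, SLC2A1, PFKM and ALDOC) and 4 below (HIF1A, EPAS1, NDRG1 and PFKFB3), where 7.89% of all genes did so.

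Nonsense siRNA samples were also compared with untreated ones, a difference that, on the labels, holds both transfection and the further 24 h of culture. By limma 0 of 36 passed, where 0.614% of all genes passed, and 7 of the 36 had an unadjusted p under 0.05, beside 3597 of all 18417 genes, which is about the same share. The largest difference was that of BNIP3, which encodes a mitophagy receptor and is a strongly hypoxia-inducible gene, at 0.29 (limma adjusted p = 0.113). BNIP3 read 9.67, 9.35 and 9.78 after nonsense siRNA, 9.25, 9.26 and 9.41 in untreated cells and 9.41, 9.39 and 9.37 after YAP siRNA. Nonsense siRNA replicates 1 and 3 were thus above every other array, and replicate 2 lay among the untreated and YAP siRNA arrays. Without replicate 2, BNIP3 rose by 0.42 from untreated cells to nonsense siRNA (limma adjusted p = 0.00248) and fell by 0.34 from nonsense siRNA to YAP siRNA (limma adjusted p = 0.00433).

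Leaving out nonsense siRNA replicate 2 also moved HIF1A and HK2 past the threshold. HIF1A differed by 0.18 between nonsense siRNA and untreated cells (limma adjusted p = 0.168), and by 0.23 without nonsense siRNA replicate 2 (limma adjusted p = 0.0389). HK2 read 8.91, 9.13 and 8.81 after nonsense siRNA and 9.20, 8.997 and 9.15 in untreated cells, a difference of -0.17 (limma adjusted p = 0.247), or -0.26 without nonsense siRNA replicate 2 (limma adjusted p = 0.0323). Leaving out that array brought the members that passed to 3 for nonsense siRNA against untreated cells (HIF1A, BNIP3 and HK2) and to 9 for YAP siRNA against nonsense siRNA, where EGLN1, BNIP3, SLC2A1 and HK2 joined the 5. The counts over all genes rose with it, to 1470 and 1231. Between the controls, 3 of the 36 members and 1470 of the 18417 genes are about the same share. The calls of HIF1A, BNIP3 and HK2 in that comparison thus do not set the members apart from other genes. For YAP siRNA against nonsense siRNA, 9 of the 36 members is a larger share than 1231 of the 18417 genes. Leaving out nonsense siRNA replicate 1 brought the second count to 3 (HIF1A, NDRG1 and PFKM) and that over all genes to 426. Leaving out nonsense siRNA replicate 3 brought the latter to 497. Without YAP siRNA replicate 3 the second count was 4, ALDOC being lost, and that over all genes was 583. Between nonsense siRNA and untreated cells, the lowest members besides HK2 were PFKL at -0.18, ANKRD37 at -0.14 and the neuronal enolase gene ENO2 at -0.13, and the highest besides BNIP3 and HIF1A were VHL at 0.13 and ADM at 0.11. None of these 5 passed. For TPI1 the dimmer probe set did not pass in any comparison either.

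**Figure D3:**
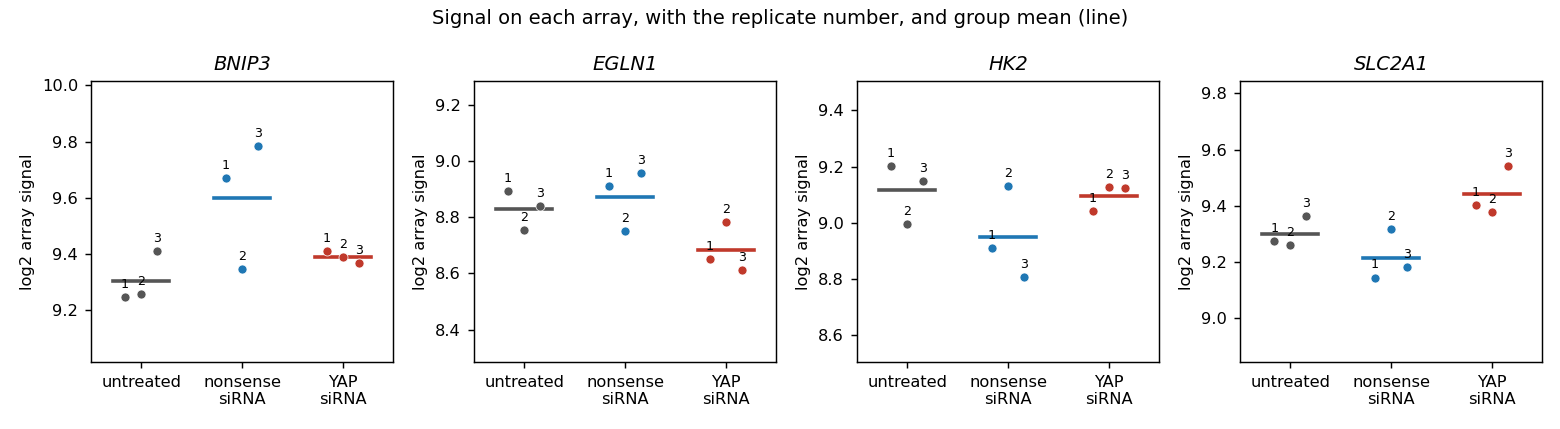
Log2 array signal (vertical axis, own scale per gene) of BNIP3, EGLN1, HK2 and SLC2A1 by group, with the replicate number above each point and the group mean as a line. The genes shown are those that newly passed for YAP siRNA against nonsense siRNA when nonsense siRNA replicate 2 was left out. That this array lies apart from replicates 1 and 3 here follows from that choice. For BNIP3 it lies at 9.35 against 9.67 and 9.78.

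Genes of the same pathways outside the 39 were read from the same test, 88 of a list of 96. Against nonsense siRNA 3 rose and 6 fell, which is 10.2% beside 4.53% of all genes, and against untreated cells 6 rose and 5 fell, which is 12.5% beside 3.09%. With only genes at or above the median signal tested, 10 of these genes passed in each comparison, beside 891 and 578 of 9209. Genes of HIF control and HIF targets gave 7 of the 9 calls against nonsense siRNA, genes of glycogen the other 2, and the 16 other glycolysis genes and 19 genes of gluconeogenesis and pyruvate fate gave 0. Of the latter, named after their values were seen, the mitochondrial pyruvate carrier gene MPC1 differed by -0.34 (limma adjusted p = 0.102), and passed at -0.51 without nonsense siRNA replicate 2 (0.00100) and at -0.34 with the replicate number as a block (0.0386). DLAT, a subunit gene of pyruvate dehydrogenase, fell by 0.23 against untreated cells (limma adjusted p = 0.0298), a call not kept in 6 of the 9 fits with an array left out, and differed by -0.20 from nonsense siRNA (0.0532).

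PLOD2, a hypoxia-inducible lysyl hydroxylase gene of collagen cross-linking, read 8.76, 8.84 and 8.64 after YAP siRNA. It read 9.81, 9.39 and 9.78 after nonsense siRNA and 9.42, 9.48 and 9.44 in untreated cells, so that every YAP siRNA array was below the 6 controls by more than the controls differed among themselves. PLOD2 fell by 0.91 against nonsense siRNA (limma adjusted p = 2.26e-05) and fell by 0.70 against untreated cells (limma adjusted p = 0.000382). The chemokine receptor gene CXCR4 fell by 0.26 and by 0.31 (limma adjusted p = 0.00710 and 0.00234), with YAP siRNA arrays at 7.07 to 7.11 and controls at 7.31 to 7.46.

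Other hypoxia targets moved the opposite way. CA12, a membrane carbonic anhydrase gene, read 8.86, 8.86 and 8.85 after YAP siRNA and between 8.41 and 8.53 in the 6 controls. CA12 rose by 0.41 against nonsense siRNA (limma adjusted p = 0.000122) and by 0.35 against untreated cells (limma adjusted p = 0.000897). LOX, a lysyl oxidase gene that also serves collagen cross-linking, rose by 0.35 and by 0.24, and MET, the receptor gene of hepatocyte growth factor, rose by 0.27 and by 0.31. When each array was left out in turn, the second LOX call did not pass in 7 of 9 fits, and MET did not pass in 3 of 9 against nonsense siRNA and in 2 of 9 against untreated cells. With all 33297 probe sets tested, neither MET call passed (limma adjusted p = 0.0776 and 0.0700), nor did LOX against untreated cells (0.176).

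**Figure D4:**
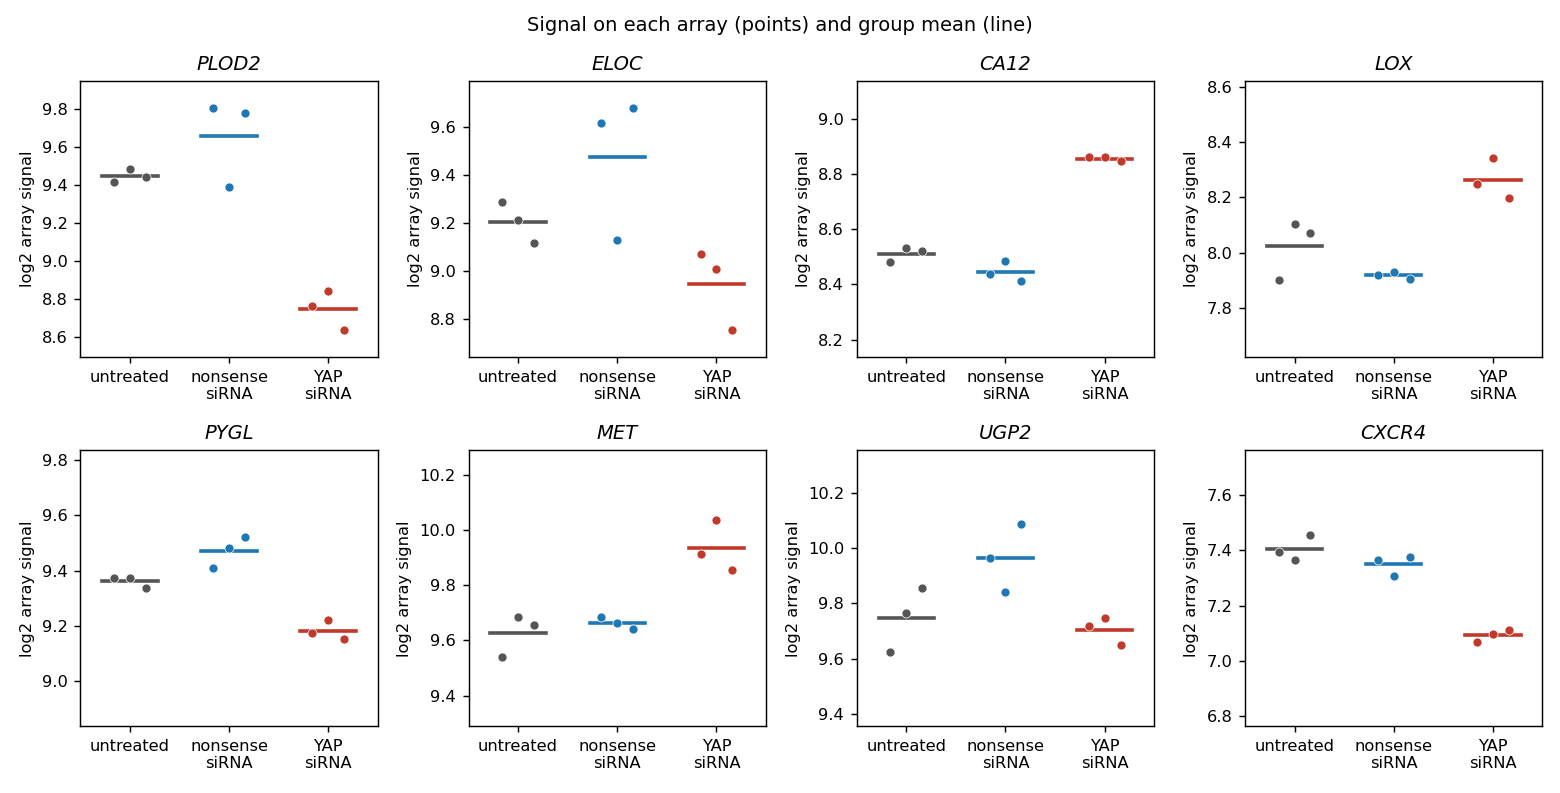
Log2 array signal (vertical axis, own scale per gene) of PLOD2, ELOC, CA12, LOX, PYGL, MET, UGP2 and CXCR4 by group; points are the 3 arrays of a group and lines are group means. PLOD2 lies at 8.64 to 8.84 after YAP siRNA and at 9.39 to 9.81 after nonsense siRNA, and CA12 lies above all 6 controls.

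In HIF control, ELOC, which encodes the elongin subunit that joins VHL to its ubiquitin ligase, fell by 0.53 against nonsense siRNA (limma adjusted p = 0.0132), with a nonsense siRNA group spread between 9.13 and 9.68. ELOC did not pass in 3 of the 9 fits with an array left out, nor with all probe sets tested (limma adjusted p = 0.160), and the -0.26 against untreated cells did not pass. CITED2 was picked once its values were known, since the naming rule did not cover it, and encodes a HIF-induced competitor of HIF for its coactivators. It fell by 0.25 against nonsense siRNA (limma adjusted p = 0.0132) and by 0.22 against untreated cells (0.0330), and did not pass in 4 and 5 of those 9 fits; neither call passed with all probe sets tested (0.0510 and 0.0994).

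Of the glycogen genes, PYGL, the liver glycogen phosphorylase, fell by 0.29 against nonsense siRNA (limma adjusted p = 0.00358), and UGP2, which makes the glucose donor of glycogen, fell by 0.26 (0.0468) and did not pass in 6 of the 9 fits with an array left out. UGP2 also did not pass with all probe sets tested (limma adjusted p = 0.200), with median centring (0.0572) or with the replicate number as a block (0.0575). Neither passed against untreated cells, at -0.18 and -0.04. Against untreated cells, the adenylate kinase gene AK4 rose by 0.33 (limma adjusted p = 0.00207), the phosphopentomutase gene PGM2 by 0.29 (0.009996) and the transferrin receptor gene TFRC by 0.28 (0.0126), and LOXL2 fell by 0.26 (0.0185). Their differences from nonsense siRNA were 0.17, 0.13, 0.15 and -0.04, and none of these passed. With all probe sets tested, PGM2 (limma adjusted p = 0.0672), TFRC (0.0786) and LOXL2 (0.0859) did not pass. Leaving out each array in turn, LOXL2 did not pass in 4 of 9 fits, PGM2 in 3 and TFRC in 2.

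TIGAR, which lowers glycolytic flux by removing the activator that PFKFB enzymes make, was the 1 gene of the 88 that passed between nonsense siRNA and untreated cells, and it rose by 0.37 (limma adjusted p = 0.0427). TIGAR did not pass in 7 of the 9 fits with an array left out, where its limma adjusted p reached 0.249, nor with all probe sets tested (0.218). Without nonsense siRNA replicate 2, 13 of the 88 passed in this comparison, 11 higher and 2 lower, TIGAR among them. In that fit 1470 of all 18417 genes passed, where 113 did with all arrays. The liver isoform and gluconeogenic genes PKLR, FBP1 and PCK1, with mean signals of 6.84, 6.95 and 6.57 under the median over genes, differed from nonsense siRNA by 0.05, 0.08 and -0.01. LDHB differed by -0.16 and the stress gene DDIT4 by 0.07, and none of these 5 genes passed in any comparison.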

How the data were processed

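Log2 array signals of 33297 probe sets on 9 arrays were used as deposited by the authors; the log2 unit was inferred from the values' range, and how they were background-corrected, summarised and scaled is not stated in any source consulted here. Labelling followed the standard Affymetrix protocol, per the labels' protocols. Probe sets were named from GEO's platform annotation: 19460 had 1 gene, 1754 several and 12083 none listed. The brightest probe set stood for a gene. Group means were estimated from the 9 arrays together by limma 3.58.1 under R 4.3.3 (lmFit, then eBayes; prior degrees of freedom 9.29), two-sided, with Benjamini-Hochberg adjustment over 18417 genes. The fit was tested on simulated data. Members, gene lists and the rule for naming were chosen with earlier results of these data known. The rule named every member that passed, 17 fixed members, the 4 largest differences per direction and comparison, up to 8 other pathway genes that passed per comparison and 8 fixed ones. Same-numbered arrays of different groups had deviations correlating from -0.337 to 0.344. This does not settle whether the numbers pair samples, and the main fit took them not to. Alternatives covered scaling, dim genes, probe sets, variance model, arrays used, array weights, thresholds, the replicate number and each array left out; leaving out 3 low-weight arrays together was added after seeing the data.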

Additional observations from a re-analysis of the deposited data

How the results depend on the processing

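No called value of a listed gene changed sign in any alternative run. Of 2034 single values of the 36 genes, 1997 kept their side of the threshold, 33 newly passed and 4 no longer passed. The cause of the shifts in counts was not tested. For YAP siRNA against nonsense siRNA, array weights gave 12 members (the 5 with ARNT, EGLN1, BNIP3, P4HA2, SLC2A1, HK1 and PFKL), 19 other pathway genes and 2404 of all genes, and leaving out 3 low-weight arrays together, chosen after seeing the data, gave 8, 14 and 1287. For YAP siRNA against untreated cells, array weights gave 17 other pathway genes and 1759 genes, and leaving out the 3 arrays gave 1560 genes. For nonsense siRNA against untreated cells, array weights gave 5, 17 and 2620, and leaving out the 3 arrays gave 4, 18 and 2319. With all 33297 probe sets tested, 5 other pathway genes and 424 probe sets passed against nonsense siRNA, 4 and 205 against untreated cells, and 0 and 0 between the controls. At an adjusted p under 0.01, 3 members passed against nonsense siRNA. Between the controls, median centring gave 0 other pathway genes, and a fit of only the 6 arrays gave 0 and 67 genes. With the replicate number as a block, 5, 3 and 0 members passed in the 3 comparisons. Between the controls it gave 0 other pathway genes and 65 genes. The block also changed single calls of MPC1, UGP2, DLAT, LOX and TIGAR. Of 9 same-numbered pairs 3 correlated over 0.1, which cannot show whether the numbers pair samples. Leaving out 1 array gave 3 to 9 members, 5 to 13 other pathway genes and 426 to 1231 genes for YAP siRNA against nonsense siRNA, 3 to 4, 5 to 11 and 279 to 775 against untreated cells, and 0 to 3, 0 to 13 and 11 to 1470 between the controls. Genes with signals near the lower end of the array were limited by background, and 3 arrays a group limited the precision throughout.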
